A study of Rattus norvegicus with 12 samples.

Results

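The members are the spots whose 1 gene symbol in the probe annotation, joined on spot number, begins with HNRNP, SRSF and a digit, SF3A, SF3B, SNRP, U2AF or PRPF. This rule took 88 cDNA clones of 47 genes, out of 9600 spots and 6284 named genes on the array. By prefix there were 39 clones of 15 HNRNP genes, 11 clones of 7 SRSF genes, 13 clones of 8 SF3A and SF3B genes (called SF3 below), 12 clones of 8 SNRP genes, 3 clones of 2 U2AF genes and 10 clones of 7 PRPF genes. No measured value entered the rule. Where a gene has more than 1 clone, its clones are numbered in spot order and described separately.

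The spliceosome removes introns from pre-mRNA and is built anew on each intron from small nuclear ribonucleoproteins (snRNPs), each an RNA wrapped in proteins. Proteins of the U2AF and SF3 groups recognise the 3′ end of the intron and its branch point, SNRP genes encode the proteins of the snRNPs themselves, and many PRPF proteins drive the later rearrangements. SR proteins (SRSF genes) and heterogeneous nuclear ribonucleoproteins (hnRNPs, HNRNP genes) bind the transcript, often with opposite effects on the use of an exon, and several hnRNPs also act on mRNA stability, transport and translation. In neurons these proteins are known for the wide alternative splicing of brain transcripts, and some hnRNPs travel with mRNAs into neurites.

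RNA came from hippocampal neurons of Sprague Dawley rat embryos, cultured for 12 days, by the study's methods above a feeder layer of glia, and labelled with 33P on 12 nylon membranes of spotted human clones. Every culture was first silenced for 3 h (Block) with D-APV (50 µM) and CNQX (40 µM), blockers of glutamate receptors, and TTX (100 nM), a blocker of sodium channels. Cultures then stayed in Block or received bicuculline (50 µM), a blocker of inhibitory receptors, with 4-aminopyridine (500 µM), a blocker of potassium channels (BiC/4AP), each without or with actinomycin D (ActD, 25 µM), which stops transcription. The labelled times are 5, 30 and 60 min, which gives 12 conditions with 1 array each, every array from 3 pooled coverslips. The labels call these times the length of treatment, whereas by the study's methods the stimulus itself was short and cells were collected afterwards, and the amount of RNA and the pooling also differ between the sources. Numbers in the labels run from 69 to 72 at 5 min, from 73 to 76 at 30 min and from 77 to 80 at 60 min, so time and this order cannot be told apart.

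Intensities are those of a phosphorimager, with no unit. The array median was 81.8 to 137 at 5 min, 57.3 to 74.1 at 30 min and 52.6 to 80.9 at 60 min, and each array was therefore placed on a common scale before any comparison: the z-score of log2 intensity over all spots multiplied by the mean SD of 2.15, called scaled log2 intensity. Across the 88 members, arrays of 1 time correlated at 0.934 to 0.987 (Pearson's r, 6 pairs of arrays a time), and arrays of 5 min with those of 30 or 60 min at 0.843 to 0.939 (16 pairs each). These points share each clone's own brightness and are a description. Of the neuronal markers looked for, 14 clones of 10 genes were on the array, among them STMN3, STMN2, GAP43, TUBB3, SNAP25 and NEFM, and their summed raw intensity was 1590 to 3230 at 5 min, 1250 to 2580 at 30 min and 1190 to 2740 at 60 min. The 8 astrocyte clones summed to 1530 to 2650, 966 to 1240 and 1770 to 2150 at these times, and the 6 microglial clones to 11400 to 12700, 12500 to 14100 and 13300 to 15200. Those microglial sums were dominated by C1QB, a complement subunit (mean log2 intensity 13.63). The 7 clones of the oligodendrocyte lineage summed to 2010 to 2820, 2480 to 3710 and 2920 to 3860. They ranged from PDGFRA, a marker of oligodendrocyte precursors (1.53), to CNP clone 1 (11.06). The 7 vascular or fibroblast clones summed to 4090 to 4680, 4530 to 4890 and 4610 to 5170, and these sums were dominated by ACTA2 (12.04). All of these sums are raw and were not adjusted for the array medians given above. The part of other cell types in the results below was not tested, and in such bulk RNA fewer cells of a type and less RNA per cell cannot be told apart.

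The member spots were slightly brighter than the array as a whole, with a median of the mean log2 intensity of 6.67 (2.52 to 11.32) against 6.21 over all spots. The brightest member spots were those of SF3A1, a subunit of the U2 snRNP (11.32), HNRNPC clone 1 (10.69), HNRNPU clone 3 (10.28), HNRNPA1 clone 2 (10.26) and HNRNPU clone 2, just under these. U2AF2 (9.27), HNRNPH1 (8.88), SRSF7 clone 1 (8.88), HNRNPK clone 2 (8.75) and SRSF6 (8.63) followed. The dimmest were HNRNPA0 clone 7 (2.52), PRPF19 (3.11), HNRNPA0 clone 3 (3.35), SF3A2 clone 1 (3.53) and HNRNPAB clone 1 (3.79). The last position of each block of 25 spots carries no entry in the annotation, and these 384 positions reached at most 3.45, so 3 member clones were no brighter than that. Clones of the same gene also differed in brightness: the 7 clones of HNRNPA0 spanned 2.52 to 8.60, and the 4 clones of HNRNPC 6.15 to 10.69.

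**Figure D1:**
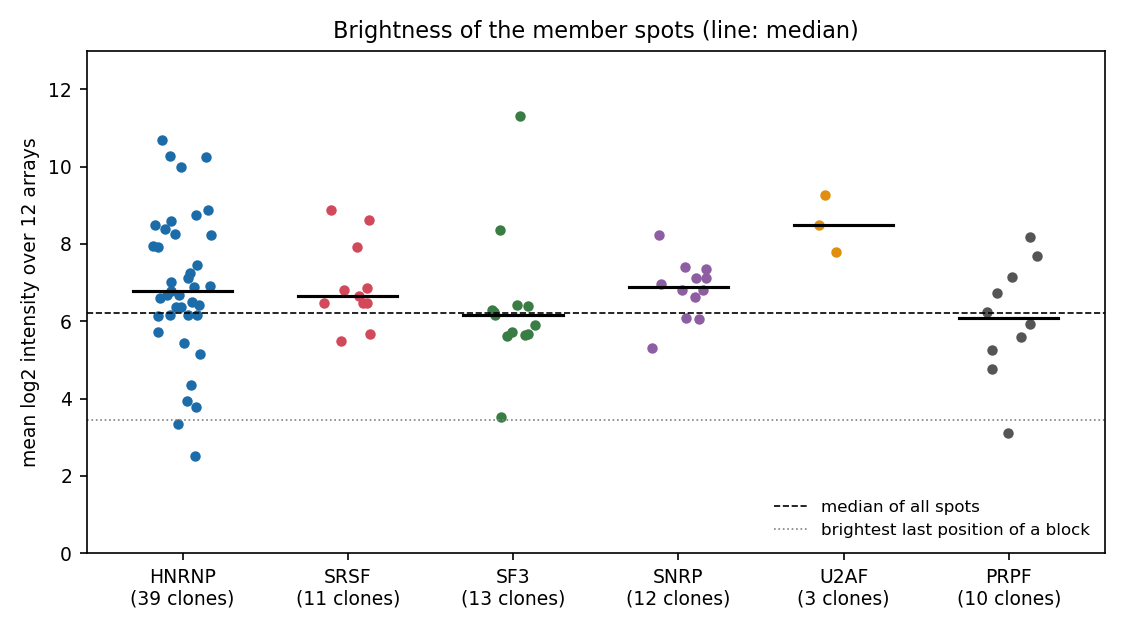
Mean log2 raw intensity over 12 arrays (y axis) of each of the 88 member clones (1 point each), by gene group (x axis), with the group median as a line, the median of all 9600 spots dashed (6.21) and the brightest last position of a block dotted (3.45). HNRNPA0 clones 7 and 3 and PRPF19 lie under the dotted line.

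The first comparison asked whether network activity changed these transcripts, with BiC/4AP set against Block in 6 pairs of arrays that share the time and the ActD state. No member was called (limma, adjusted p under 0.05; background 0% of all spots), the lowest adjusted p being 0.904. The median difference over the 88 clones was 0.00 log2, as it was over all spots, and 43 clones lay above 0 and 45 below (48.9% above 0, beside 49.3% of all spots). At an unadjusted p under 0.05 there were 3 clones, or 3.41% of members beside 5.19% of all spots. Not 1 member moved the same way in all 6 pairs, beside 3.82% of all spots. The 95% interval of a member's difference, not adjusted for the number of spots, had a median half-width of 0.28 log2. Differences smaller than that could mostly not be resolved here, and larger ones were not sure to be called after adjustment. HNRNPA0 clone 2, at 0.53, had an adjusted p of 0.906 (limma).

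The 3 clones with an unadjusted p under 0.05, named after their values were seen, were small in size. HNRNPF clone 4, for an hnRNP that binds G-rich RNA, differed by -0.34, -0.03 and 0.00 log2 at 5, 30 and 60 min without ActD and by -0.36, -0.64 and -0.38 with it (mean -0.29 ± 0.11, SE). HNRNPC clone 3, for an hnRNP that binds uridine tracts, gave -0.38, -0.76 and -0.16 without ActD and -0.30, 0.09 and -0.34 with it (mean -0.31 ± 0.12). HNRNPDL clone 1, for a relative of HNRNPD, gave 0.13, 0.31 and -0.08 without and 0.39, 0.22 and 0.35 with it (mean 0.22 ± 0.09). In each of the 3, 1 pair of 6 lay at 0 or on the other side of it, and neither the other 3 HNRNPC clones nor the other HNRNPDL clone had an unadjusted p under 0.05. By group, 10 of 12 SNRP clones lay below 0 (median -0.08) and 3 of 3 U2AF clones (median -0.10), while 22 of 39 HNRNP clones lay above it (median 0.03), beside 49.3% of all spots above 0. Over the 6 pairs these group medians fell on both sides of 0 (SNRP -0.23 to 0.09, U2AF -0.28 to 0.04, HNRNP -0.05 to 0.07). The clones of a group were read on the same arrays and are not independent.

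**Figure D2:**
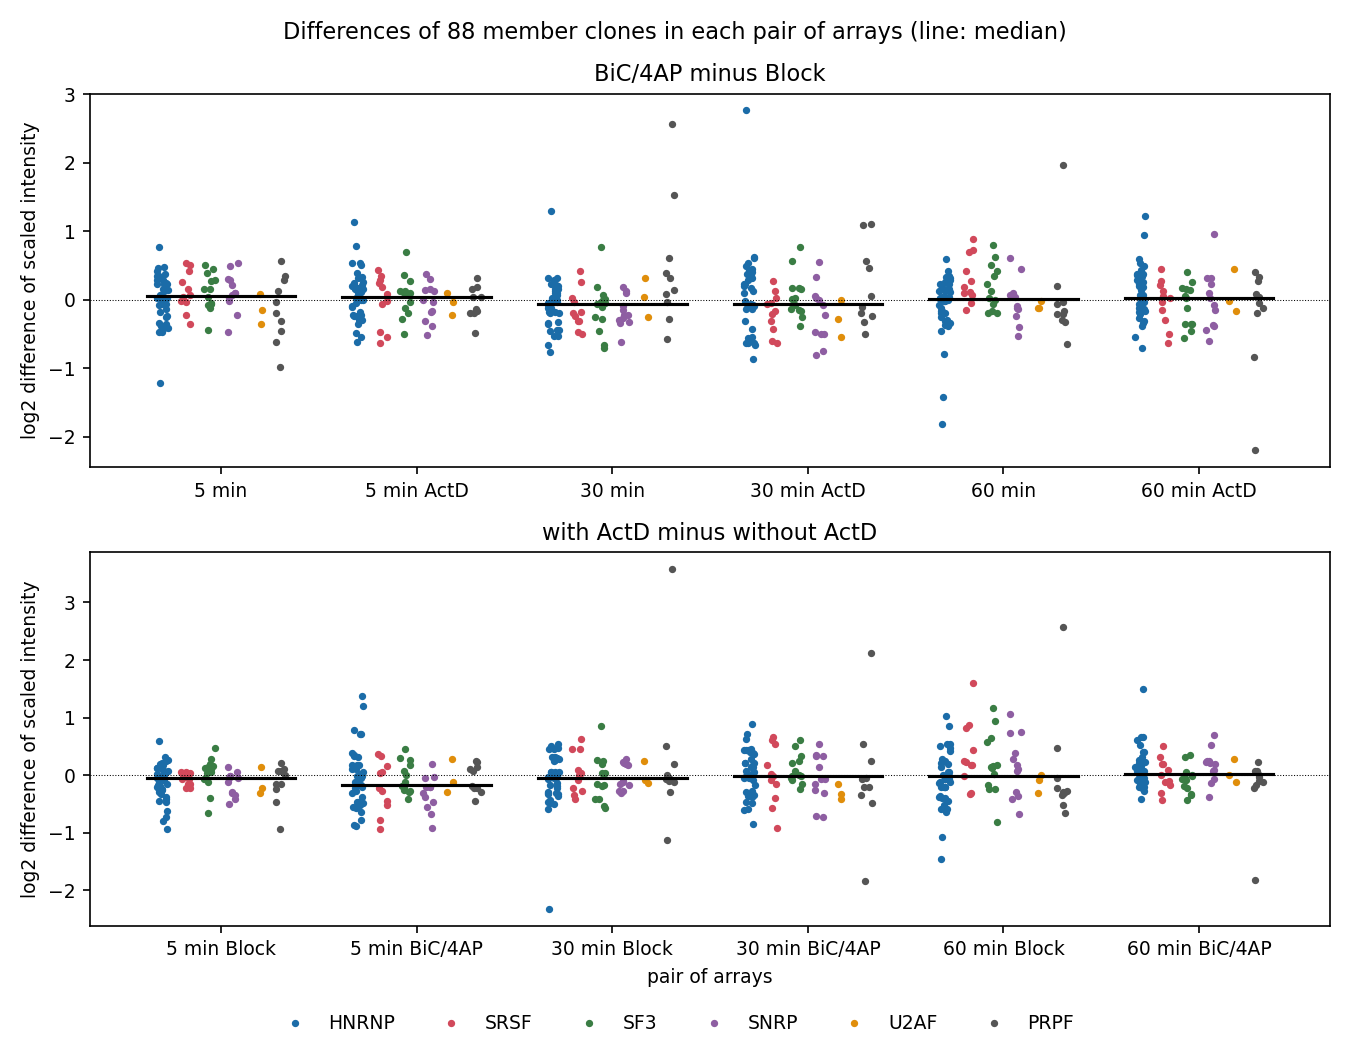
Difference of scaled log2 intensity (y axis) of 88 member clones in each of 6 pairs of arrays (x axis), for BiC/4AP minus Block (top) and for with ActD minus without ActD (bottom), coloured by gene group, with the median as a line. The pair medians run from -0.07 to 0.05 for activity and from -0.17 to 0.03 for ActD, and the widest points belong to dim clones such as PRPF19, PRPF3 clone 2 and HNRNPA0 clone 2.

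Split by ActD state, activity again called no member, either without ActD (background 0%) or with it (background 0.0104%). Unadjusted p-values under 0.05 were seen for 5 and 7 clones, or 5.68% beside 3.12% of all spots without ActD and 7.95% beside 4.52% with it. The difference between these effects, which asks whether transcription was needed for a change, called no member (background 0%), and 6 clones had an unadjusted p under 0.05 (6.82% of members, 2.95% of all spots; adjusted p = 0.998 by limma for each of the 6). Of the 6, 3 were clones of HNRNPA0, an hnRNP that binds AU-rich elements. HNRNPA0 clone 2 differed by -0.47, -0.18 and -0.46 log2 between BiC/4AP and Block at 5, 30 and 60 min without ActD and by 0.33, 2.76 and 1.22 with ActD. That is an effect without minus with ActD of -1.81 ± 0.57 (SE, n = 3 pairs). Clones 7 and 5 gave -1.22 ± 0.40 and -0.61 ± 0.21, and these 3 clones were dim, at mean log2 intensities of 3.95, 2.52 and 4.34. The brightest HNRNPA0 clone, clone 6 (8.60), was not among the 6. In the other direction SF3B5, a small subunit of SF3B, gave 0.70 ± 0.25, HNRNPUL1 clone 2 gave 0.50 ± 0.20 and HNRNPK clone 2 gave 0.45 ± 0.19.

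Time was the axis along which member values moved. Between 30 and 5 min, compared within 4 sets of arrays that share the treatment, 26 member clones were called higher and 13 lower, together 44.3% of members, beside 44.5% of all spots (20.1% higher and 24.4% lower). Between 60 and 5 min 20 were called higher and 10 lower, or 34.1% beside 36.6% of all spots (16.2% higher and 20.5% lower). These comparisons share the 5 min arrays. Members were called about as often as spots in general, so these shares set them apart in neither comparison. The median difference of the members was 0.16 log2 at 30 min and 0.10 at 60 min, beside 0.01 and 0.06 over all spots.

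Higher calls were the majority among members, and the size of this majority depended on the scaling. Of the member calls, 66.7% were higher in both comparisons, whereas after centring each array on its median, which raised the median of all spots from 0.01 to 0.29 at 30 min and from 0.06 to 0.36 at 60 min, 86.3% and 82.4% were higher. With block medians subtracted the share was 79.2% and 79.1%, with medians of all spots at 0.22 and 0.24. In 4 other scalings, 35 of the 39 members called at 30 min and 28 of the 30 called at 60 min kept their sign, and 18 and 20 of them were called in the same direction in each of the 4. Brightness also ran with direction. Members called higher at 30 min had a median log2 intensity of 7.85 and those called lower 6.15, as over all spots (7.48 and 5.89). The part of array brightness in the time differences was not tested.

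Of the proteins that recognise the 3′ splice site, U2AF1 encodes the small subunit of U2AF, which binds the terminal AG, and both of its clones rose. U2AF1 clone 2 had scaled log2 intensities of 8.03, 7.88, 7.80 and 7.78 at 5 min (Block, BiC/4AP, Block with ActD and BiC/4AP with ActD, an order kept below), 8.95, 8.99, 9.20 and 8.65 at 30 min and 8.67, 8.65, 8.67 and 8.65 at 60 min. Every later array lay above every 5 min array, the differences being 1.07 ± 0.12 log2 at 30 min (SE, n = 4 sets; adjusted p = 0.000455) and 0.79 ± 0.12 at 60 min (adjusted p = 0.00179). U2AF1 clone 1 rose by 0.52 and 0.60. U2AF2, the large subunit that binds the polypyrimidine tract, behaved otherwise, at 9.43, 9.07, 9.57 and 9.35 at 5 min, 8.72, 9.04, 8.62 and 8.62 at 30 min, and 9.80, 9.66, 9.71 and 9.54 at 60 min. Its 30 min arrays lay below both other times, and its 5 and 60 min arrays overlapped. The 30 against 5 min difference was -0.61 ± 0.15 (adjusted p = 0.0108), which turned to 0.14 with block medians subtracted, and the 60 against 30 min difference was 0.93 ± 0.15 (adjusted p = 0.0113), positive and called in the 4 other scalings too.

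The SF3A and SF3B proteins belong to the U2 snRNP and hold the branch point. Of the 13 clones of their genes, 3 were called higher and 3 lower at 30 min, and 2 and 2 at 60 min. These were 46.2% and 30.8% of the group, beside 44.5% and 36.6% of all spots. SF3A2 was called in both directions by its 2 clones. SF3A2 clone 2 was 6.71, 7.10, 6.75 and 6.84 at 5 min, 5.85, 5.39, 5.43 and 5.60 at 30 min and 5.18 to 5.54 at 60 min. Every later array lay below every 5 min array, with differences of -1.28 ± 0.15 log2 at 30 min (adjusted p = 0.000531) and -1.51 ± 0.15 at 60 min (adjusted p = 0.000322). The dim SF3A2 clone 1 was 3.04, 3.07, 2.39 and 3.09 at 5 min and 3.41 to 4.25 later, a rise of 0.89 ± 0.17 and 0.97 ± 0.17. The labels do not say which clone better represents the rat transcript.

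SF3B3, a scaffold subunit of SF3B, had 3 clones with negative differences at both times, of which clone 3 was called. SF3B3 clone 3 stood at 6.57, 6.49, 6.71 and 6.67 at 5 min, 5.44, 5.45, 4.87 and 5.43 at 30 min and 4.48, 5.10, 5.42 and 5.06 at 60 min, with no overlap between 5 min and either later time. The differences were -1.31 ± 0.21 (adjusted p = 0.00161) and -1.59 ± 0.21 (adjusted p = 0.000885), against -0.22 and -0.14 for clone 2 and -0.11 and -0.02 for clone 1, and with block medians subtracted clone 3 gave -0.14 and -0.39. SF3B5 fell by 0.78 at 30 min, when its arrays were 4.64 to 5.50 after 5.83 to 6.11, and its 60 min difference of -0.24 was not called. The bright SF3A1 rose by 0.66 at 30 min, when its arrays were 11.39 to 11.82 after 10.62 to 11.21. SF3B2, a subunit that contacts RNA beside the branch point, rose by 0.46 at 30 min, and SF3A3, SF3B4 and SF3B6 had no call. Over the group the median was -0.13 at 30 min and -0.06 at 60 min, and both turned positive under quantile normalisation (0.15 and 0.07) and median centring (0.15 and 0.20), so no direction is given for the SF3 group.

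**Figure D3:**
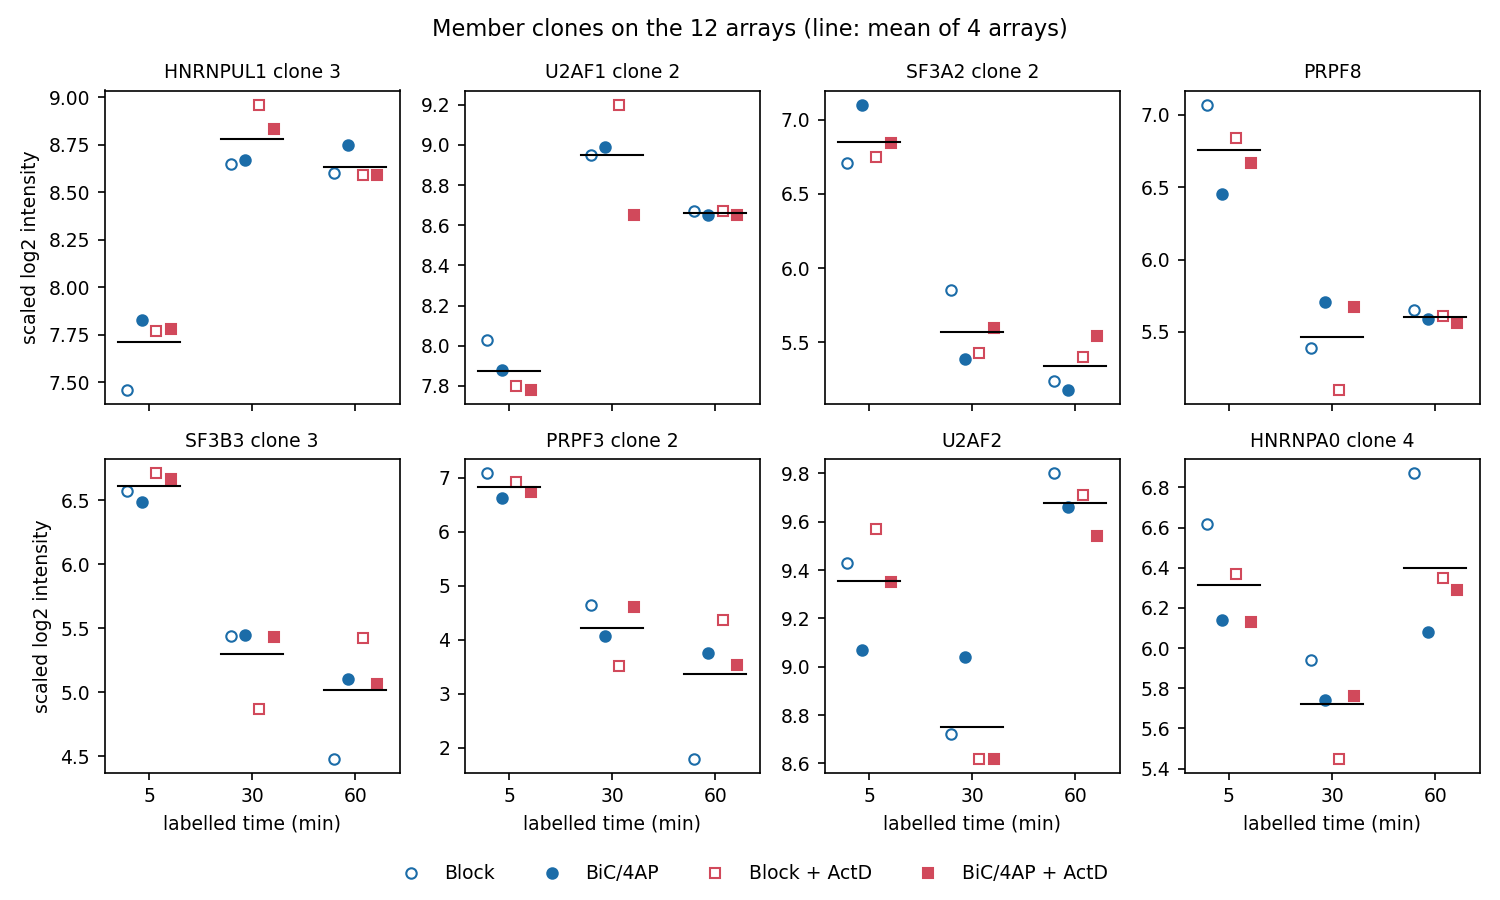
Scaled log2 intensity (y axis, own range in each panel) of 8 member clones on the 12 arrays, by labelled time (x axis), with Block open and BiC/4AP filled, ActD as squares, and the mean of the 4 arrays of a time as a line. HNRNPUL1 clone 3 and U2AF1 clone 2 are higher and SF3A2 clone 2, PRPF8, SF3B3 clone 3 and PRPF3 clone 2 lower at both later times, while U2AF2 and HNRNPA0 clone 4 are lowest at 30 min.

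Among the SNRP genes, SNRPD1, SNRPD2, SNRPD3, SNRPE, SNRPF and SNRPG encode the Sm ring that wraps the snRNAs. Their clones did not move as a unit. SNRPD1 fell from 7.31, 7.53, 7.02 and 7.32 at 5 min to 6.68, 6.87, 6.58 and 6.62 at 30 min and 6.70, 6.29, 6.03 and 6.99 at 60 min, by 0.61 ± 0.17 (adjusted p = 0.0194) and 0.79 ± 0.17 (adjusted p = 0.00754). SNRPD3 clone 1 rose from 7.62, 7.92, 7.76 and 7.89 to 8.32, 8.45, 8.61 and 8.60 and then stood at 8.48, 8.53, 8.07 and 8.39, with differences of 0.70 ± 0.13 (adjusted p = 0.00363) and 0.57 ± 0.13. For both clones every later array lay on the same side of every 5 min array, whereas SNRPD3 clone 2 gave -0.05 at 30 min. SNRPG was called higher at 30 min by 0.83, and SNRPE (0.04), SNRPF (-0.01) and both SNRPD2 clones (0.08 and 0.27) were not called.

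SNRPN, the Sm protein made in brain from an imprinted gene and nearly identical in protein to SNRPB, had both clones called higher at 30 min (0.71 and 0.53) and neither at 60 min (0.11 and 0.15). On these spots its RNA may not be separable from that of SNRPB. SNRPA encodes the U1 protein that binds a loop of U1 snRNA. SNRPA clone 2 fell from 6.08, 5.61, 5.98 and 5.80 to 5.09, 4.82, 4.82 and 5.37 at 30 min and 4.85, 4.89, 5.24 and 5.09 at 60 min, by 0.84 ± 0.15 (adjusted p = 0.00278) and 0.85 ± 0.15 (adjusted p = 0.00347). Clone 1 of the gene lay on the same side at both times (-0.31 and -0.39) without a call. The 12 SNRP clones had a median of 0.06 and 0.05, with 4 higher and 2 lower calls at 30 min and 1 and 2 at 60 min. These were 50% and 25% of the group, beside 44.5% and 36.6% of all spots.

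Of the PRPF genes, PRPF8, which encodes the U5 protein at the catalytic centre, fell in its only clone. Its 5 min arrays were at 7.07, 6.45, 6.84 and 6.67, its 30 min arrays at 5.39, 5.71, 5.10 and 5.67 and its 60 min arrays at 5.65, 5.59, 5.61 and 5.56. With no overlap, the falls were 1.29 ± 0.17 (0.410-fold, adjusted p = 0.00077) and 1.16 ± 0.17 (0.449-fold, adjusted p = 0.00153), and they were called in the 4 other scalings as well. The size of the change was greatest, among members, for PRPF3 clone 2, of a U4/U6 snRNP protein. Its raw intensities were 206, 121, 133 and 103 at 5 min, 23.4, 14.6, 10 and 25.8 at 30 min and 2.21, 12.2, 20.7 and 9.39 at 60 min, so that the later values approached those of the last positions of the blocks, whose array medians were 2.94 to 7.45. The scaled differences of -2.63 ± 0.49 (adjusted p = 0.00313) and -3.47 ± 0.49 (adjusted p = 0.00114) therefore rest on near-background readings at the later times. PRPF3 clone 1, at 7.33 to 8.10 on the 12 arrays, gave -0.28 and -0.31 and was not called.

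PRPF38A, a protein of the complex that precedes activation, rose by 0.58 ± 0.10 at 60 min (adjusted p = 0.00355), its arrays at 7.28 to 7.62 after 6.71 to 6.95. PRPF4 clone 1, of another U4/U6 protein, was called higher at 30 min (0.53), whereas PRPF6, a bridge within the tri-snRNP, gave -0.33 and -0.31 without a call. PRPF18, a factor of the second splicing step, had no call in 2 clones, and PRPF19, a ubiquitin ligase of the spliceosome, was too dim and scattered to resolve (-1.01 ± 0.94 at 30 min).

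Among the genes of SR proteins, the clones of SRSF7 and of SRSF2 differed in their calls. SRSF7 clone 1 was called higher at 30 min (0.59) while clone 2 was called lower at 30 min (-0.59 ± 0.21, adjusted p = 0.0447) and at 60 min (-0.99 ± 0.21, adjusted p = 0.00652). SRSF7 clone 2 read 6.88, 7.29, 6.81 and 7.06 at 5 min, 6.75, 6.71, 6.42 and 5.79 at 30 min and 5.86, 5.96, 6.10 and 6.15 at 60 min. With block medians subtracted these differences turned to 0.36 and 0.08. SRSF2, which activates many exons, was called lower by clone 2 (-0.81 ± 0.20 and -1.12 ± 0.20; 6.98 to 7.33 at 5 min, 6.15 to 6.48 at 30 min and 5.47 to 6.35 at 60 min) and not called by clone 1 (0.18 and 0.03). SRSF4 rose from 7.26, 7.33, 7.10 and 7.37 to 8.01, 7.83, 8.64 and 8.44 at 30 min and 8.21, 8.49, 7.92 and 8.19 at 60 min, by 0.96 and 0.94 ± 0.20 (adjusted p = 0.00745 at 60 min). SRSF3, SRSF5, SRSF6 and the 3 clones of SRSF10 had no call at either time.

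At 30 min 14 of 39 hnRNP clones were called higher and 3 lower (43.6%, beside 44.5% of all spots), and at 60 min 13 and 2 (38.5%, beside 36.6%). Their median difference was 0.32 and 0.30 log2, with 28 and 30 clones above 0 (beside 50.6% and 54.2% of all spots). It was positive in the 4 other scalings too (0.31 to 0.58 and 0.20 to 0.69). The median of all spots was also positive in those scalings (0.04 to 0.29 and 0.04 to 0.36). HNRNPUL1, a relative of HNRNPU, was higher by its 3 clones. HNRNPUL1 clone 3 read 7.46, 7.83, 7.77 and 7.78 at 5 min, 8.65, 8.67, 8.96 and 8.83 at 30 min and 8.60, 8.75, 8.59 and 8.59 at 60 min, without overlap. It rose by 1.07 ± 0.12 (2.09-fold, adjusted p = 0.000391) and 0.92 ± 0.12 (1.90-fold, adjusted p = 0.000738), clone 2 by 0.68 and 0.75, and clone 1 by 0.44 at 60 min after 0.32, not called, at 30 min.

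HNRNPDL, a relative of HNRNPD, likewise rose by both clones. Clone 2 read 6.37, 6.65, 6.55 and 6.71, then 7.21, 7.33, 7.49 and 7.38, then 7.47, 7.45, 7.26 and 7.47, a rise of 0.78 ± 0.12 (adjusted p = 0.00117) and 0.84 ± 0.12 (adjusted p = 0.00104), and clone 1 rose by 0.53 and 0.52. HNRNPR, an hnRNP known from axonal mRNA transport in mouse motor neurons, went from 6.74, 7.17, 6.88 and 7.04 to 7.63, 7.72, 7.93 and 7.79 and 7.47, 7.89, 7.54 and 7.48, higher by 0.81 ± 0.13 and 0.64 ± 0.13. HNRNPH1, a protein of G-rich elements, read 8.06, 8.82, 7.77 and 8.30 at 5 min, 10.09, 9.74, 9.77 and 8.90 at 30 min and 8.78, 8.76, 8.58 and 9.01 at 60 min. Its rise at 30 min of 1.39 ± 0.27 (2.62-fold, adjusted p = 0.00358) was called and the 60 min arrays overlapped those of 5 min. HNRNPF clone 3 (0.95 and 0.76), HNRNPA1 clone 3 (0.83 and 0.71), HNRNPLL clone 1 (0.43 and 0.49), HNRNPK clone 1 (0.72 at 60 min), HNRNPK clone 2 (0.95 at 30 min) and HNRNPU clone 2 (0.72 at 30 min) were also called higher. HNRNPA1 has many processed copies in mammalian genomes, so its spots may report more than 1 transcript.

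Lower among the hnRNPs were HNRNPD and HNRNPAB clone 4. HNRNPD, known as AUF1, which binds AU-rich elements and acts in mRNA decay, read 6.72, 6.66, 6.94 and 6.84, then 6.21, 6.04, 6.28 and 6.25, then 6.09, 6.22, 6.34 and 6.02. It fell by 0.59 ± 0.11 (adjusted p = 0.00311) and 0.62 ± 0.11 (adjusted p = 0.00328), with no overlap, but with block medians subtracted the differences turned to 0.17 and 0.05. HNRNPAB clone 4 fell by 0.67 ± 0.11 and 0.71 ± 0.11 (5.84 to 6.13 on the later arrays after 6.56 to 6.76), while HNRNPAB clone 3 rose by 0.41 at 60 min and clone 1 by 0.78 at 30 min. HNRNPM, HNRNPA2B1 and the 4 clones of HNRNPC had no call at either time.

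HNRNPA0 has 7 clones, and they did not move alike. Clone 7 rose from 1.80, 1.37, 1.01 and 2.14 to 3.60, 2.94, 3.29 and 3.22 at 30 min (1.68 ± 0.26, adjusted p = 0.00139) and then read 3.03, 1.61, 3.03 and 3.10, at an intensity no greater than that of the brightest last positions. Clone 5 rose by 0.55 and 0.60. Clone 4 was lowest at 30 min, reading 6.62, 6.14, 6.37 and 6.13, then 5.94, 5.74, 5.45 and 5.76, then 6.87, 6.08, 6.35 and 6.29, a fall of 0.59 ± 0.14 that turned to 0.03 with block medians subtracted. Its 60 against 30 min difference of 0.67 ± 0.14 was called (adjusted p = 0.0304), as it was in 2 of the 4 other scalings, and clones 1, 2, 3 and 6 had no call in the 3 time comparisons.

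**Figure D4:**
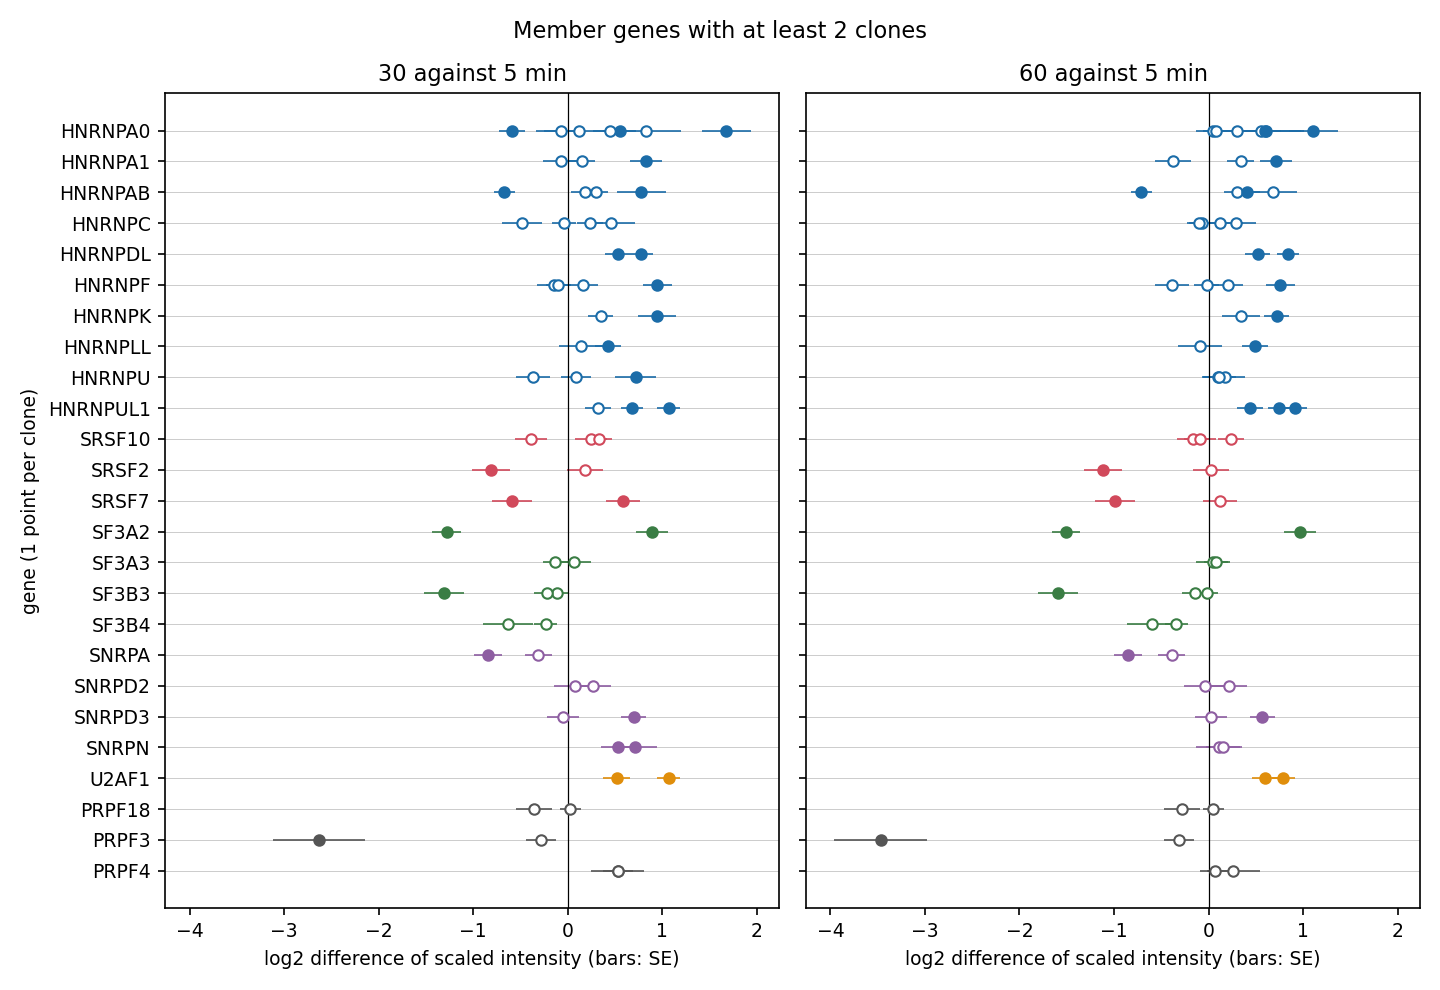
Difference of scaled log2 intensity (x axis, bars are SE, n = 4 sets) at 30 against 5 min (left) and 60 against 5 min (right) for each clone of the 25 member genes with at least 2 clones (y axis), filled where limma's adjusted p is under 0.05. SF3A2 has filled points on both sides of 0 in both panels, and U2AF1 and HNRNPDL have both clones filled to the right.

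Across the 25 genes with at least 2 clones (66 clones), 70 pairs of clones of the same gene could be formed. At 30 against 5 min 37 pairs (52.9%) shared a sign, beside 59.3% of 3570 such pairs among other named genes, and at 60 against 5 min 49 pairs (70%) beside 58%. Where both clones of a pair were called, 5 agreed and 5 opposed each other at 30 min, and 6 agreed and 2 opposed each other at 60 min. In other named genes 67.9% and 66.7% of such pairs had the same direction. Pairs are not independent of each other where a gene has 3 or more clones.

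Between 60 and 30 min, 2 members were called higher and 0 lower (2.27%, background 3.15% of all spots, 3.03% higher and 0.115% lower), namely U2AF2 and HNRNPA0 clone 4, both described above. With 1 of the 4 sets left out, no member was called without the Block, the Block with ActD or the BiC/4AP with ActD set (background 0% of all spots in each). Without the BiC/4AP set 1 member was called (1.14%, beside 2.52% of all spots). At an unadjusted p under 0.05 there were 15 members, 17.0% beside 16.3% of all spots. HNRNPC clone 1 (0.77), SF3B5 (0.54), PRPF38A (0.31) and HNRNPK clone 1 (0.37) had the next smallest p-values among those higher in the 4 sets, with adjusted p-values of 0.0985 to 0.224. Among those lower in the 4 sets, HNRNPK clone 2 (-0.61), PRPF4 clone 1 (-0.45) and SRSF7 clone 1 (-0.46) came first, with adjusted p-values of 0.172 to 0.245.

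Counts of members whose groups of 4 arrays did not overlap need no fit. At 30 against 5 min 26 members lay wholly above and 15 wholly below (46.6%, beside 42.3% of all spots), at 60 against 5 min 20 and 11 (35.2% beside 40.7%), and at 60 against 30 min 6 and 5 (beside 11.2%), more than the 2 and 0 that limma called.

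The comparison of ActD with its absence asked whether these transcripts fell relative to the other spots when no RNA was made. Each array was scaled over all of its spots, so a fall shared by all transcripts could not be seen. Over 6 pairs no member was called (background 0.0104%), 1 had an unadjusted p under 0.05 (1.14%, beside 2.09% of all spots), and the median was -0.02, with 37 clones above 0 and 51 below (42.0% above 0, beside 51% of all spots). That clone was SF3A2 clone 1, named after its values were seen, with differences of -0.65, -0.54 and -0.82 in Block at 5, 30 and 60 min and 0.01, 0.07 and -0.22 in BiC/4AP (mean -0.36 ± 0.14). Not 1 member moved the same way in the 6 pairs (background 1.44%), and the median half-width of the 95% interval was 0.31 log2. In Block alone and in BiC/4AP alone no member was called either (background 0% in each), with 4 and 2 clones at an unadjusted p under 0.05 (4.55% beside 2.49% of all spots, and 2.27% beside 1.92%).

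Whether the ActD difference grew from 5 to 60 min was tested with 2 pairs of arrays at each time. No member was called (background 0%, lowest adjusted p = 0.58), and 7 clones had an unadjusted p under 0.05 (7.95%, beside 7.99% of all spots). HNRNPC clone 4 (1.09 ± 0.27), SNRPD2 clone 1 (1.05 ± 0.26) and HNRNPK clone 2 (1.00 ± 0.31) led in the positive direction, and HNRNPC clone 1 (-0.80 ± 0.30) and HNRNPU clone 3 (-0.65 ± 0.26) in the negative. HNRNPC thus had clones at both ends. The median over members was 0.17 beside -0.01 over all spots. Above 0 lay 11 of 12 SNRP clones (median 0.34) and 8 of 11 SRSF clones (median 0.36), beside 49.5% of all spots. Below it lay 8 of 10 PRPF clones (median -0.14). Clones read on the same arrays are not independent of each other. The 14 neuronal marker clones had a median of 0.41 in the same comparison, and their part in the result was not tested.

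The study's own criterion takes a z-fold, the difference of z-scores between BiC/4AP and Block divided by its SD over all spots, and counts a clone as co-regulated when this value passes 1.4 on the same side of 0 both in the absence and in the presence of ActD. The sources used here do not print the formula, and this form was assumed. It took no member at 5 min (background 1.07% of all spots), 1 at 30 min (1.05%) and none at 60 min (0.927%), and with 1 array per condition it carries no test. The member at 30 min was PRPF19, with z-folds of 4.52 and 1.94. Its raw intensities at 30 min were 1.01 with Block, 5.12 with BiC/4AP, 10 with Block and ActD and 25.9 with BiC/4AP and ActD, all of them dim, and it read exactly 10, the most frequent single value on these arrays, on 2 of 12 arrays. At 60 min PRPF3 clone 2 lay beyond the threshold in opposite directions (3.74 and -1.56; background 1.27%).

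Other genes of splicing, from a list of 161 that the prefixes do not take, had 131 clones of 95 genes on the array. Activity and ActD called none of them (background 0% and 0.0104%). At 30 against 5 min 27 were called higher and 43 lower (53.4%, beside 44.5% of all spots; median -0.13), and at 60 against 5 min 20 and 36 (42.7%, beside 36.6%; median -0.01). The difference between this list and the members was not tested. Some genes of this list, named after their values were seen, had every clone called in the same direction. NONO, a nuclear protein of paraspeckles, rose in its 4 clones, by 0.71, 0.71, 1.03 and 1.08 at 30 min and by 0.62, 0.63, 0.87 and 0.84 at 60 min. SNU13 was lower in both of its clones, at -0.50 and -0.42 at 30 min and -0.45 and -0.39 at 60 min. PTBP1, a repressor of neuronal exons that is sparse in mature neurons and present in glia, rose in its 3 clones, by 0.51, 0.70 and 0.84 and by 0.62, 0.62 and 0.54, while its neuronal relative PTBP2, a dim spot (3.95), gave -0.13 and -0.20 without a call. RBFOX2, a splicing regulator found in neurons among other cells, fell by 0.52 at 30 min and gave -0.34, not called, at 60 min. TRA2B was called in both directions at 30 min, at 0.55 in clone 1 and -0.98 in clone 3.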

How the data were processed

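The authors deposited raw spot intensity per array (phosphorimager scans of human MGC clone membranes), in 1 table with no normalisation; a deposited value table held the same intensity in 115200 of 115200 values. Of 9600 spots, 8496 carry 1 gene symbol. As a check of the join, 152 clones of ribosomal proteins exceeded the array mean by 2.01 log2. The 47 member symbols each have a rat RefSeq entry. Brightness correlated weakly between 2 clones of a gene (Spearman's rho 0.149 across 1488 genes, which are not independent replicates). Over the member genes with more than 1 clone rho was 0.108.

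Log2 intensity was z-scored per array, multiplied by the mean SD, and fitted with limma 3.58.1 in R 4.3.3 over all spots with Benjamini-Hochberg adjustment. Activity and ActD were compared within 6 pairs, time within 4 sets. By the study's methods, RNA of 2 separate experiments was pooled for each nylon condition, whereas the labels give 3 pooled coverslips. Nothing says that arrays of different conditions came from separate cultures. The spread behind each p-value is therefore that among these arrays and may be technical, and the number of arrays limits the precision. The fit was tested on simulated data. Named clones are those with the smallest p among clones moving the same way in each pair or set (up to 10 a direction; up to 3 for the 2 differences of effects), co-regulated clones, the 10 brightest and 5 dimmest, and genes with 3 or more clones. The members, lists and rules were chosen with earlier results of these data known. Alternatives were other scalings, filters, fits and left-out pairs.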

Additional observations from a re-analysis of the deposited data

How the results depend on the processing

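Counts of called members kept within 1.5 times of those reported under the scalings, filters and fits tried, except as follows. At 60 against 5 min, 51 members were called with median centring (42 higher, 9 lower) in place of 30. That was 58% of members beside 54.5% of all spots. At 60 against 30 min, 1 was called with quantile normalisation, 4 with median centring and 1 with block medians subtracted, in place of 2. These were 1.14%, 4.55% and 1.14% of members, beside 2.57%, 5.26% and 3.08% of all spots. Co-regulated members at 5 min numbered 1 with quantile normalisation, 1 with the 10th percentile added, 1 with the dimmest spots left out and 2 with spots without 1 gene symbol left out, in place of 0. At 30 min they numbered 0 with the 10th percentile added, with the dimmest spots left out, with plain differences of z-scores, and with spots at exactly 10 left out, an alternative chosen after seeing the data. At 60 min they numbered 1 with quantile normalisation, with block medians subtracted and with spots without 1 gene symbol left out. The causes were not tested. Leaving out 1 set of arrays gave 24 to 37 member calls at 30 against 5 min, beside 25.3% to 38.9% of all spots. It gave 22 to 25 at 60 against 5 min (beside 21.1% to 29%) and 0 to 1 at 60 against 30 min (beside 0% to 2.52%). Without the Block + ActD set, 24 in place of 39 members were called at 30 against 5 min (27.3%, beside 25.3% of all spots). Without the Block, Block + ActD or BiC/4AP + ActD set no member and no other spot was called at 60 against 30 min. No paired analysis was possible because, by replicate number, the groups share only number 1; the pairs and sets compared above match arrays by condition instead. There was 1 array per condition. Of the members, 3 were no brighter than the last block positions reach, and 2 had readings of exactly 10.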
